A study of Mus musculus with 8 samples.

Results

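The dystrophin complex was followed through 8 genes, Dmd, Utrn, Dag1, Sgca, Sgcb, Sgcd, Dtna and Sntb1, which were taken by symbol from a raw count matrix of 42391 gene entries. Bulk RNA-seq was available for 8 samples, 2 in each of 4 groups. C2C12 cells, a clonal mouse myoblast line, were collected 60 h after transfection with a non-targeting siRNA or a Septin9 siRNA, at 12 h of myogenic differentiation in medium with reduced serum, with 50 nM siRNA and 100 nM in the first 5 h. Primary myoblasts, isolated from the hindlimb muscle of 5-week-old mice and pre-plated to remove fibroblasts, received the same siRNAs and were collected 48 h later in proliferation medium. The controls are labelled WT and the treated samples Septin 9 KD, no other allele is named, the knockdown rested on 1 Septin9 siRNA sequence, and replicates 1 and 2 were independent experiments in which a control and a Septin9 siRNA sample formed a pair. Cell type, stage, medium and time after transfection differed together between the 2 sets of samples, so their parts cannot be told apart. Septin9, a filament-forming GTPase, was at 409 and 435 CPM (counts scaled to a common library size by TMM) in the C2C12 controls and at 147 and 185 CPM after Septin9 siRNA, and in primary myoblasts at 376 and 473 CPM in the controls and 208 and 159 CPM after Septin9 siRNA (edgeR adjusted p = 5.11e-09 and 0.000134). The depth was 20898611 to 27223414 counts per sample.

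The complex spans the muscle membrane and ties the actin cytoskeleton to laminin in the basement membrane. Dystrophin binds actin at one end and beta-dystroglycan at the other, alpha-dystroglycan holds the extracellular ligands, the sarcoglycans stabilise dystroglycan in the membrane, and dystrobrevins and syntrophins form a cytoplasmic branch that recruits signalling proteins. Loss of dystrophin causes Duchenne muscular dystrophy and loss of a sarcoglycan causes a limb-girdle dystrophy. Utrophin, an autosomal homologue of dystrophin, holds the same place in many non-muscle cells and in immature muscle.

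The marker genes bore on how far the cells had differentiated. The myoblast markers Myod1, Myf5, Des, Cdh15 and Pax7 were above 1 CPM in every sample, and Msc, the sixth on that list, stayed below 1 CPM. The summed level of 8 genes of differentiating myocytes (Myog, Mymk, Mymx, Myh3, Ttn, Actn2, Ckm and Tnnt3) was 18.8 and 82.8 CPM in the C2C12 controls and 40.4 and 136 CPM after Septin9 siRNA, in pairs 1 and 2. In primary myoblasts it was 8503 and 2302 CPM in the controls and 11437 and 6490 CPM after Septin9 siRNA. The samples labelled as proliferating thus held far more myocyte RNA than the C2C12 cells at 12 h of differentiation. Pair 1 was the lower pair in C2C12 cells and the higher pair in primary myoblasts, and the sum was above its control after Septin9 siRNA in all 4 pairs. Myh3 was the largest part of the sum in primary myoblasts, at 5021 and 1128 CPM in the controls and 6733 and 3737 CPM after Septin9 siRNA. Ttn fell in pair 1 of the primary myoblasts, from 660 to 558 CPM, and the other listed genes were higher in all 4 pairs. The fibroblast marker Pdgfra was at 1.03 and 0.896 CPM in pair 1 of the primary myoblasts and at 31.7 and 32.1 CPM in pair 2, whereas Lum and Dpt stayed below 1 CPM and Tcf21 at 0, Pi16 reached 3.88 CPM in C2C12 cells, and the 5 fibroblast genes summed to 10.6 to 21.3 CPM in C2C12 cells and 0.896 to 32.7 CPM in primary myoblasts. The 4 smooth muscle genes, which include Des, summed to 543 to 750 CPM in C2C12 cells and 1325 to 2514 CPM in primary myoblasts. Beside Des, Smtn was at 65.8 to 102 CPM in every sample and Cnn1 at 6.93 to 20.8 CPM in C2C12 cells, while Myh11 stayed below 1 CPM. The leukocyte genes Ptprc, Adgre1 and C1qa, the endothelial gene Tie1 and the adipocyte genes Adipoq and Plin1 were at or near 0 in all samples, and the summed level was at most 2.75 CPM for the leukocyte, 4.10 for the endothelial, 2.41 for the Schwann cell and 0.143 for the adipocyte list.

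Dmd, which encodes dystrophin, was counted in primary myoblasts and in no C2C12 sample. It lies on chromosome X at 82814664 to 85205050 on the plus strand (RefSeq, GRCm38.p6). It had 0 counts in all 4 C2C12 samples, out of 91971213 counts on genes, which allows a level of up to 0.0317 CPM over these samples together and 0.110 to 0.140 CPM in a single sample, by counting error alone. In primary myoblasts 713 and 313 counts were found in the controls and 706 and 476 after Septin9 siRNA, or 30.6 and 11.6 CPM against 31.6 and 22.7 CPM. The mean of the primary myoblast controls, 21.1 ± 13.4 CPM (SD, n = 2), was 346-fold above a floor of 3 counts over both C2C12 controls, 0.0610 CPM. This floor covers counting error in the C2C12 cells alone and not the spread between the primary myoblast controls. Of 11678 gene entries with at least 100 counts in every primary myoblast sample, 39 (0.334%) were at 0 in every C2C12 sample, and 3 of these are further copies of another entry. The nearest genes on either side of Dmd with at least 100 counts in every sample were counted in both cell types. Tmem47, 1.72 Mb before the 5′ end, had 1307 to 2311 counts in C2C12 cells and 5426 to 8881 in primary myoblasts, and Tab3, 0.369 Mb beyond the 3′ end, had 304 to 474 and 388 to 565 counts. The zero was therefore not shared by the flanking genes. The 4 other gene entries that overlap the span of Dmd had at most 4 counts in any sample. Of these, Gm52441 had 1 to 4 counts in the C2C12 samples and 0 to 2 in primary myoblasts.

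Dmd has several promoters, and counts per gene cannot separate the full-length muscle protein from the short isoforms that start within the gene. RefSeq promoter windows, 250 bases before to 50 after a start, were available for 2 starts of Dmd, and they are shown because the zero in C2C12 cells covered transcripts from either. Capitals mark matches to the E-box CANNTG, the motif bound by Myod1 and Myog, and to the MEF2 site, on either strand.
Dmd start at 82948870 (X:82948620-82948919, plus strand, GRCm38.p6): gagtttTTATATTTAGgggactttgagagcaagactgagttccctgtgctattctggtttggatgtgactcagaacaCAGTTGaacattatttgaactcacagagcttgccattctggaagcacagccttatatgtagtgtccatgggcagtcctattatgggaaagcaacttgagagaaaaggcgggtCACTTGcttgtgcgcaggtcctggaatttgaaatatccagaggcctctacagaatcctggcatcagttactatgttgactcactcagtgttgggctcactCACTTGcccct
Dmd start at 85048295 (X:85048045-85048344, plus strand, GRCm38.p6): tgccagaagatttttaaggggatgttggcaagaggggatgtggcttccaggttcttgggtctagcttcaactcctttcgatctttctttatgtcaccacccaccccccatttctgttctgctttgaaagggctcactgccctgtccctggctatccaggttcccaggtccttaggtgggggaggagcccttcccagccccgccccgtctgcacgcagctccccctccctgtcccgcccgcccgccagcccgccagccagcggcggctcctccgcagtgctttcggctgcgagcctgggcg
The first, upstream window held 3 E-boxes, beginning at -173, -61 and 39 from the start, and 1 MEF2 site, with no overlap between them, at 45.7% GC. The second, near the 3′ end of the gene, held none of either at 62.7% GC. Over all 32851 mouse promoter windows of this length, 72.3% held an E-box and 3.19% a MEF2 site, so the E-boxes do not set the first window apart from most promoters.

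Utrn, which encodes utrophin (chromosome 10, 12382187 to 12869888, minus strand), was expressed in every sample at a narrow range of levels. It was at 132 and 168 CPM in the C2C12 controls and 126 and 163 CPM after Septin9 siRNA, and at 160 and 118 CPM in the primary myoblast controls and 142 and 165 CPM after Septin9 siRNA. Its control levels did not pass the test between the cell types (log2 difference, primary myoblasts minus C2C12, -0.10, 95% interval -0.68 to 0.47, edgeR adjusted p = 0.746). Among 12217 other genes with a mean of at least 5 CPM, those whose log2 CPM followed Utrn most closely over the 8 samples were Caskin2 (Pearson r = 0.944), Gm10532 (0.933), Sptbn1 (0.928), Brwd3 (0.928) and Il6st (0.922). For Dmd they were Sel1l3, Rxrg, both listed copies of Meg3, and Zdbf2, all at r above 0.999, and each of these was at 0 in at least 1 C2C12 sample, so that the contrast between the cell types alone sets r near its limit. These correlations describe 8 samples that share 2 cell types and carry no test.

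**Figure D1:**
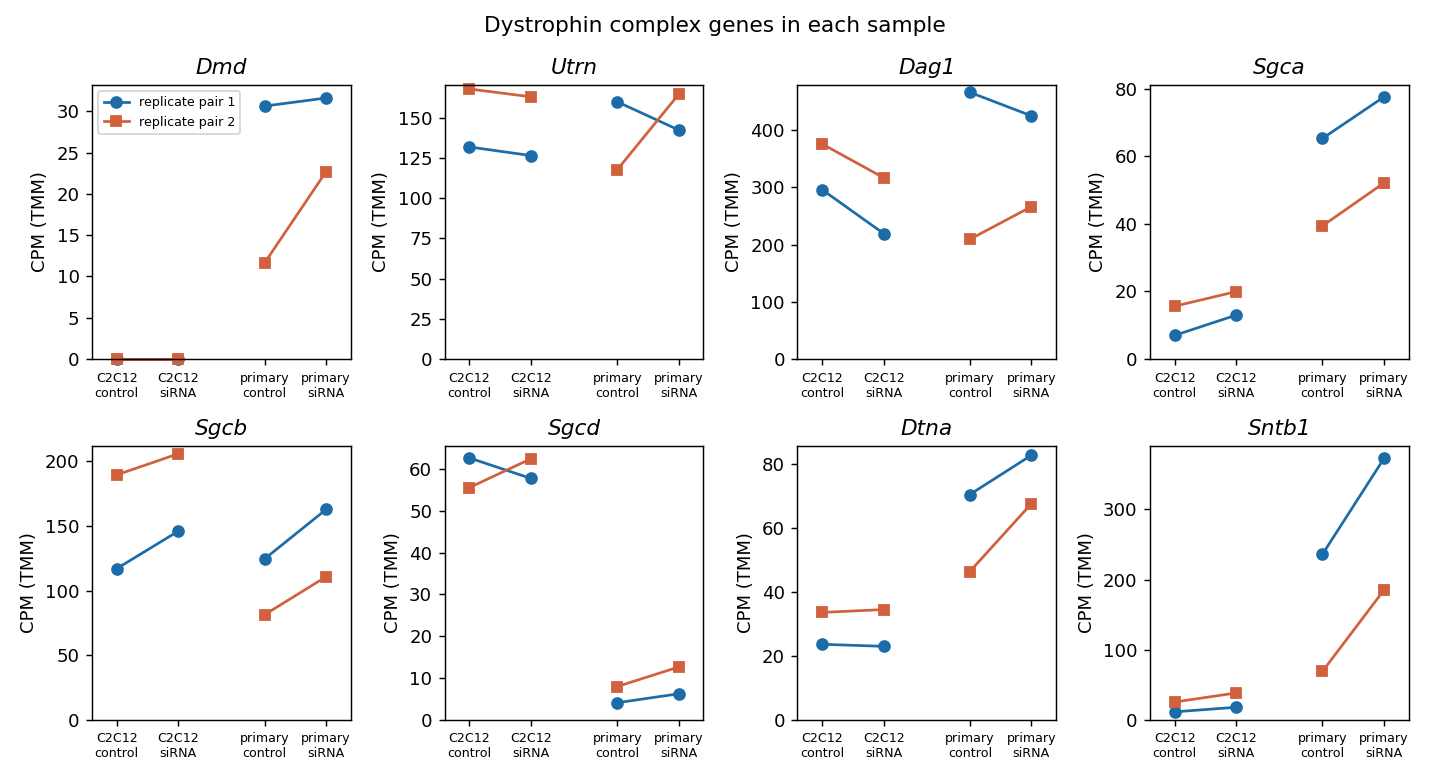
CPM (scaled by TMM over all 8 samples) of each dystrophin complex gene, with a line joining the control and Septin9 siRNA sample of each replicate pair. Dmd is at 0 in the 4 C2C12 samples, Sgcd is higher in C2C12 cells, and Sgca, Dtna and Sntb1 are higher in primary myoblasts.

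Levels were compared between genes only per exon kilobase, as CPM divided by the exon length in kilobases (FPKM). Dag1, which encodes both dystroglycan subunits from 1 precursor (chromosome 9, 108204861 to 108263977), led in both controls, at 52.9 ± 8.89 FPKM in C2C12 cells and 53.1 ± 28.6 FPKM in primary myoblasts (SD, n = 2), above 93.9% and 93.8% of the genes tested with a known length. In C2C12 controls Sgcb followed at 37.8 ± 12.7 FPKM, then Utrn at 8.75 ± 1.49, Sgcd at 7.16 ± 0.607, Sgca at 6.53 ± 3.52, Sntb1 at 3.44 ± 1.86, Dtna at 1.69 ± 0.416 and Dmd at 0. The 2 controls of Dag1 and Sgcb overlapped, as did those of Sgcd and Sgca and of Sgca and Sntb1, whereas the other neighbours in this order were apart. In primary myoblast controls the order was Dag1, Sgca at 30.2 ± 10.5 FPKM, Sntb1 at 28.6 ± 22.2, Sgcb at 25.4 ± 7.54, Utrn at 8.11 ± 1.75, Dtna at 3.45 ± 1.01, Dmd at 0.888 ± 0.564 and Sgcd at 0.729 ± 0.332. There the first 4 genes formed a group without separation between neighbours, and Dmd and Sgcd overlapped at the bottom. With the length of the longest transcript, Sgcd and Utrn exchanged places in C2C12 cells, as did Dtna and Sntb1, and Sgca and Sntb1 did so in primary myoblasts.

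**Figure D2:**
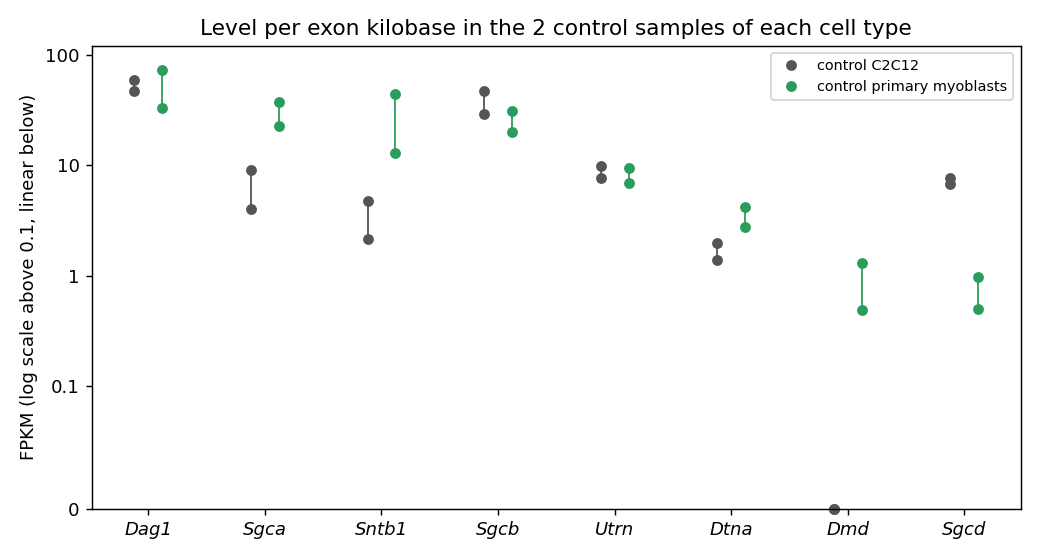
FPKM of the members in the control samples, on a log axis above 0.1 and a linear axis below it, with 1 point per sample and a line between the 2 replicates. The controls of Dag1 and of Utrn overlap between the cell types. Sgca and Sntb1 lie higher in primary myoblasts, Sgcd lies higher in C2C12 cells, and Dmd is at 0 in C2C12 cells.

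The first question was how the controls of the 2 cell types differ in the composition of the complex. Of the 8 members, 5 passed an adjusted p-value of 0.05 in edgeR's quasi-likelihood test, against a background of 34.5% of the 17103 genes tested. Dmd (edgeR adjusted p = 0.00916), Sgca, Dtna and Sntb1 were higher in primary myoblasts, Sgcd was higher in C2C12 cells, and Utrn, Dag1 and Sgcb did not pass. These calls rested on 4 samples, and without C2C12 control replicate 2 none of the members passed. Without C2C12 control replicate 1 only Dmd did, and without primary myoblast control replicate 1 Dmd, Sgcd and Sntb1 did.

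Among the sarcoglycans the contrast went both ways. Sgca, the alpha-sarcoglycan, which is largely restricted to striated muscle (chromosome 11, 94962777 to 94976327), was at 7.01 and 15.6 CPM in the C2C12 controls and 65.3 and 39.4 CPM in those of primary myoblasts, with no overlap. The difference was 2.21 on the log2 scale, or 4.64-fold (SE 0.47, edgeR adjusted p = 0.0248). Sgcd, the delta-sarcoglycan, which is also found in smooth muscle (chromosome 11, 46971077 to 47989451), was at 62.7 and 55.6 CPM in the C2C12 controls and only 4.08 and 7.96 CPM in primary myoblasts, 9.73-fold higher in C2C12 cells (log2 -3.28, primary myoblasts minus C2C12, SE 0.36, edgeR adjusted p = 0.00661). Sgcb, the beta-sarcoglycan, which is widely expressed (chromosome 5, 73632749 to 73647737), was at 117 and 190 CPM against 125 and 81.4 CPM, with overlapping groups (log2 difference -0.57, 95% interval -1.40 to 0.27). The reads of Hils1, which lies within the span of Sgca, came to 1.29% of those of Sgca, and whether reads were counted by strand is not given in the sources used here.

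In the cytoplasmic branch both members were higher in primary myoblasts. Sntb1, the beta-1-syntrophin, an adaptor with a PDZ domain (chromosome 15, 55636388 to 55907302), was at 11.3 and 25.3 CPM in the C2C12 controls and 236 and 69.0 CPM in primary myoblasts. The groups were apart and the difference was 8.36-fold (log2 3.06, SE 0.73, edgeR adjusted p = 0.0326). Dtna, the alpha-dystrobrevin on chromosome 18, was at 23.6 and 33.6 CPM against 70.5 and 46.4 CPM, 2.05-fold higher in primary myoblasts (log2 1.04, SE 0.29, edgeR adjusted p = 0.0477). With the replicate number as a block, Sntb1 and Dtna no longer passed (edgeR adjusted p = 0.0588 and 0.0813).

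The wider complex was read from 48 partner genes in 4 groups. Of the 41 tested with more than 3 counts in each cell type, 7 were higher in primary myoblasts and 4 were higher in C2C12 cells, against 34.5% of all genes called in either direction. Of the membrane and cytoskeletal partners Cav3, the muscle caveolin, was 214-fold higher (0.293 ± 0.157 against 65.3 ± 33.9 CPM), Des, the muscle intermediate filament protein, 3.22-fold and Ank3, an ankyrin, 1.96-fold, whereas Synm, an intermediate filament protein that binds dystrobrevin, was 4.59-fold higher in C2C12 cells. Among the ligands Lama2, the laminin chain of muscle basement membrane, was 6.61-fold higher in primary myoblasts, and Lama5 and Lamb2 were 3.05-fold and 2.15-fold higher in C2C12 cells. Of the genes listed for the glycosylation pathway of alpha-dystroglycan, Pomgnt2 and Dolk were higher in primary myoblasts by 2.05-fold and 1.77-fold. Sgcz (zeta-sarcoglycan), the gamma-syntrophins Sntg1 and Sntg2, and Dytn were at 0 in C2C12 cells and below 0.05 CPM in primary myoblasts.

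The second question was whether the members changed after Septin9 siRNA. In C2C12 cells 7 members passed the filter on low counts, Dmd being the exception. Sntb1 was a differentially expressed gene (DEG, adjusted p-value under 0.05 and a change of at least 1.5-fold), against 1.57% of the 15814 genes tested. At the adjusted p-value alone Sgca also rose and Dag1 fell, which makes 3 of 7 against 6.75% of all genes. The median log2 fold change of the members was 0.02, beside -0.00079 over all genes.

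Sntb1 rose by the same factor in both C2C12 experiments although its level differed between them. It went from 11.3 to 17.9 CPM in pair 1 and from 25.3 to 38.3 CPM in pair 2, so the groups overlapped while each pair rose, with log2 ratios of 0.63 and 0.61. The fitted rise was 1.53-fold (log2 0.62, 95% interval 0.43 to 0.80, edgeR adjusted p = 0.000183). Intervals here are for each gene alone and are not adjusted for the number of genes. In the fit of all 8 samples it no longer passed (edgeR adjusted p = 0.158), nor did it without replicate 1 or replicate 2 (0.174 and 0.165), when the remaining C2C12 pair takes its spread from the primary myoblasts.

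Sgca went from 7.01 to 13.0 CPM in pair 1 and from 15.6 to 20.0 CPM in pair 2 of the C2C12 cells, log2 ratios of 0.86 and 0.36. It rose 1.49-fold, just short of the DEG threshold (log2 0.58, 95% interval 0.31 to 0.84, edgeR adjusted p = 0.00766), and did not pass without replicate 1 (0.950), in the fit of all 8 samples (0.0974) or with DESeq2 (0.221). Its promoter window is shown with the E-box matches in capitals.
Sgca start at 94976327 (11:94976278-94976577, minus strand, GRCm38.p6): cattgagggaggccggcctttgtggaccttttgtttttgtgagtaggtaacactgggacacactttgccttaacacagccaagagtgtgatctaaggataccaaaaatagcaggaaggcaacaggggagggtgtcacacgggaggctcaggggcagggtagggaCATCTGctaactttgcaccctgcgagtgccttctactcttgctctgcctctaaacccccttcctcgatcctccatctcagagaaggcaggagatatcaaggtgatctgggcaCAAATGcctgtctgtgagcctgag
It held 2 E-boxes, beginning at -86 and 26 from the start, and no match to the MEF2 site. Among the members whose windows are not shown, Utrn held 7 E-box matches, of which those at -98 and -96 overlap, Sgcd 2 and Sgcb 0. The 2 windows of Dag1 overlap, and each held 1 match, which is the same site. Of all mouse promoter windows, 72.3% held an E-box. Any link between these matches and the levels of the members was not tested. Dag1 fell from 296 to 219 CPM in pair 1 and from 376 to 317 CPM in pair 2, by 0.46 and 0.23 on the log2 scale. Its fitted level after Septin9 siRNA was 0.788 of the control (log2 -0.34, 95% interval -0.49 to -0.19, edgeR adjusted p = 0.0054), and without replicate 1 or replicate 2 it did not pass (1.00 and 0.541), nor in the fit of all 8 samples (0.287).

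The other C2C12 members did not pass. Sgcb was higher in both pairs, at 117 and 146 CPM in pair 1 and 190 and 206 CPM in pair 2 (log2 0.21, 95% interval 0.07 to 0.35, edgeR adjusted p = 0.072). For Utrn the interval was -0.19 to 0.08, for Sgcd -0.14 to 0.19 and for Dtna -0.17 to 0.17 on the log2 scale, each within 1.5-fold of no change. Sgca, Sgcb and Sntb1 were higher in both pairs, as were 31% of all genes tested. Sgcd was at 62.7 and 57.8 CPM in pair 1 and 55.6 and 62.5 CPM in pair 2, and Dtna at 23.6 and 23.0 CPM and at 33.6 and 34.5 CPM, so that in neither gene did the pairs share a direction.

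In primary myoblasts all 8 members passed the filter and were tested. Sntb1 and Sgcd were DEGs, 2 of 8 against 3.17% of the 17117 genes tested, and Sgcb also rose at the adjusted p-value alone, 3 of 8 against 4.99%. The fitted fold change was above 0 for every member, with a median of 0.40 on the log2 scale beside 0.01 over all genes, and the DEGs of all genes were also mostly upward, 492 against 51. With scaling by library size alone there were 165 upward and 41 downward DEGs. Dmd, Sgca, Sgcb, Sgcd, Dtna and Sntb1 were higher in both pairs, as were 32.6% of all genes tested.

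Sntb1 had the largest fitted change of the 8 members. It went from 236 to 373 CPM in pair 1 and from 69.0 to 185 CPM in pair 2, so the pair that started lower rose more, with log2 ratios of 0.64 and 1.45. The fitted rise was 2.05-fold (log2 1.04, 95% interval 0.72 to 1.36, edgeR adjusted p = 0.000656). It stayed past the threshold in 9 of 10 alternative analyses, the exception being the fit without the replicate block, and its log2 change was 1.43 without replicate 1 and 0.66 without replicate 2.

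Sgcd, at a low level in these cells, went from 4.08 to 6.22 CPM and from 7.96 to 12.6 CPM, a rise of 1.57-fold (log2 0.65, 95% interval 0.28 to 1.02, edgeR adjusted p = 0.0406). Sgcb went from 125 to 163 CPM and from 81.4 to 111 CPM, a rise of 1.34-fold (log2 0.42, 95% interval 0.19 to 0.65, edgeR adjusted p = 0.0317). Both rose to a similar extent in each pair, by 0.58 and 0.69 for Sgcd and by 0.36 and 0.47 for Sgcb on the log2 scale. Neither passed with RLE size factors, which gave edgeR adjusted p-values of 0.083 for Sgcd and 0.0793 for Sgcb, nor with library size alone or with DESeq2.

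The remaining members did not pass in primary myoblasts. Dmd was at 30.6 and 31.6 CPM in pair 1 and at 11.6 and 22.7 CPM in pair 2, so the log2 ratio was 0.02 in the first and 0.99 in the second (fitted log2 0.48, 95% interval 0.13 to 0.83, edgeR adjusted p = 0.122). Utrn and Dag1 moved in opposite directions in the pairs. Utrn was at 160 and 142 CPM in pair 1 and 118 and 165 CPM in pair 2 (log2 ratios -0.19 and 0.51), and Dag1 at 466 and 425 CPM and at 209 and 266 CPM (-0.16 and 0.38). Dtna was at 70.5 and 82.8 CPM in pair 1 and at 46.4 and 67.6 CPM in pair 2 (fitted log2 0.39, 95% interval 0.15 to 0.63, edgeR adjusted p = 0.0606). Sgca was at 65.3 and 77.6 CPM and at 39.4 and 52.1 CPM (fitted log2 0.33, 95% interval 0.10 to 0.56, edgeR adjusted p = 0.105). Both were higher in each pair, with log2 ratios of 0.21 and 0.57 for Dtna and 0.23 and 0.43 for Sgca. Without replicate 1 the log2 changes were 0.97 for Dmd, 0.49 for Utrn, 0.36 for Dag1, 0.55 for Dtna and 0.41 for Sgca. Without replicate 2 they were 0.04, -0.17, -0.14, 0.23 and 0.25, in the same order. Either fit leaves 1 control and 1 Septin9 siRNA sample of primary myoblasts, whose spread is then assumed to be that of the C2C12 samples. A pass in either fit would thus rest on an unreplicated pair. Dmd and Dtna passed without the filter on low counts (edgeR adjusted p = 0.00786 and 0.023).

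**Figure D3:**
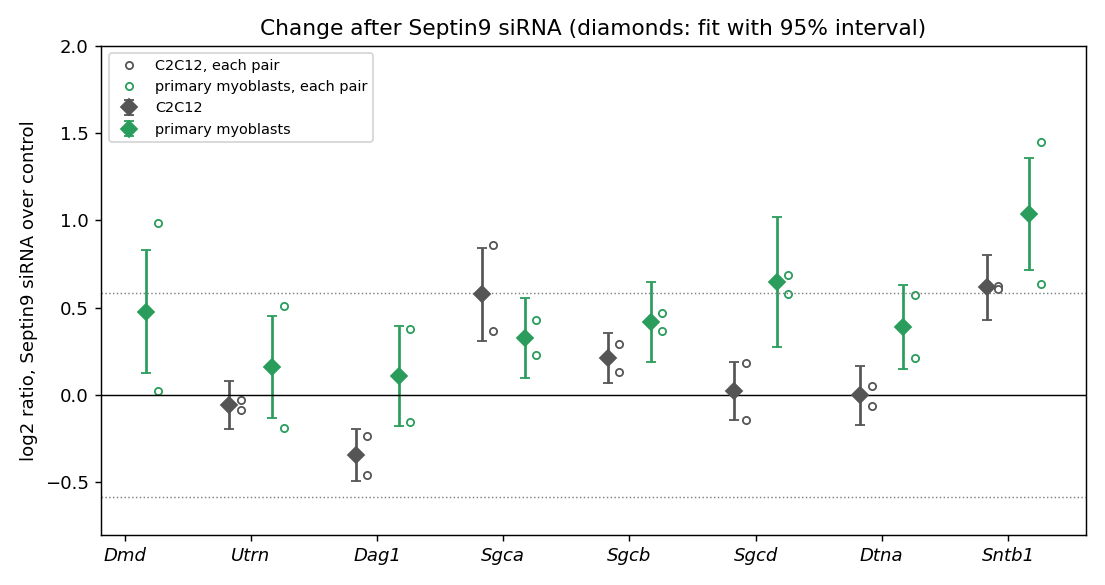
Log2 ratio of Septin9 siRNA over control for each member in C2C12 cells (grey) and primary myoblasts (green), with the fitted value and its 95% interval as a diamond and bar and each replicate pair as an open circle. Dotted lines mark 1.5-fold, and Sntb1 lies above the upper line in both cell types while Dag1 is the member whose interval lies below 0 in C2C12 cells.

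Whether the effect differed between the cell types was tested by the interaction term over all 8 samples. None of the 17918 genes passed at an adjusted p-value of 0.05 with edgeR (0% of those tested), although 1469 had an unadjusted p under 0.05, and DESeq2 called 21 genes, of which none was a member. The largest member difference was that of Sgcd, whose log2 change was higher by 0.62 in primary myoblasts (95% interval 0.26 to 0.97, edgeR adjusted p = 0.342). For Dag1 the difference was 0.44 (0.07 to 0.82), for Dtna 0.38 (0.07 to 0.69), for Sntb1 0.41 (-0.09 to 0.91) and for Sgca -0.26 (-0.64 to 0.13). Dmd gives no such difference, since it was at 0 in C2C12 cells. The difference depended on which primary myoblast pair was left out. For Utrn it was 0.56 without replicate 1 and -0.11 without replicate 2, for Dag1 0.71 and 0.21, and for Sgca -0.15 and -0.31. In either fit the primary myoblasts had 1 sample per arm and the spread came from the C2C12 samples.

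The same 48 partner genes were examined after Septin9 siRNA. In C2C12 cells Drp2, a dystrophin-related protein, and Des rose, by 0.26 and 0.49 on the log2 scale, among 3 called of the 41 tested, against 6.75% of all genes. In primary myoblasts Cav3, Nos1, the neuronal nitric oxide synthase held at the membrane by syntrophin, and Des rose, among 5 called of the 43 tested, against 4.99% of all genes. Cav3 went from 89.2 to 125 CPM and from 41.3 to 76.0 CPM (log2 0.68, edgeR adjusted p = 0.00238), and Nos1 from 6.87 to 10.8 CPM and from 0.669 to 2.15 CPM (log2 0.93, edgeR adjusted p = 0.036). No gene passed among the ligands, a list of 10 laminins, proteoglycans and agrin. None of the 3 C2C12 calls held without replicate 1 or replicate 2, and in primary myoblasts the 5 calls became 2 with RLE size factors or library size alone, 3 with DESeq2, 0 without the replicate block, 8 without the filter, 9 without replicate 1 and 11 without replicate 2. The median log2 fold change over the tested partners was 0.04 for each cell type, beside -0.00079 and 0.01 over all genes.

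The replicate experiments differed in several members by more than the siRNA changed them. Between control 2 and control 1 the log2 difference was 1.10 for both Sntb1 and Sgca in the C2C12 set. In the primary myoblast set it was -1.77 for Sntb1, -1.39 for Dmd, -1.16 for Dag1 and -0.73 for Sgca. For each of these genes the control difference was larger in size than the fitted siRNA change in the same cells. Without the replicate block edgeR called no gene in either cell type, with 372 genes at an unadjusted p under 0.05 in C2C12 cells and 378 in primary myoblasts, so no siRNA call above was made without comparing within pairs.

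The myocyte genes moved with several members. Sgca and Sntb1 had the same order over the 8 samples as the summed myocyte markers, from C2C12 control 1 at the bottom (7.01 and 11.3 CPM) to primary myoblast Septin9 siRNA 1 at the top (77.6 and 373 CPM). Within the primary myoblasts Dmd, Sgcb and Dtna had that order too, and Sgcb also had it within the C2C12 cells. Utrn and Dag1 had it in neither set of samples. In the primary myoblasts Sgcd was higher in pair 2, where the myocyte genes were lower. The part of the myocyte genes in the changes of the members was not tested. In these bulk samples more cells with a transcript and more transcript per cell cannot be told apart. Sgcd was higher in pair 2 of the primary myoblasts, as was Pdgfra, whose part was likewise not tested.

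**Figure D4:**
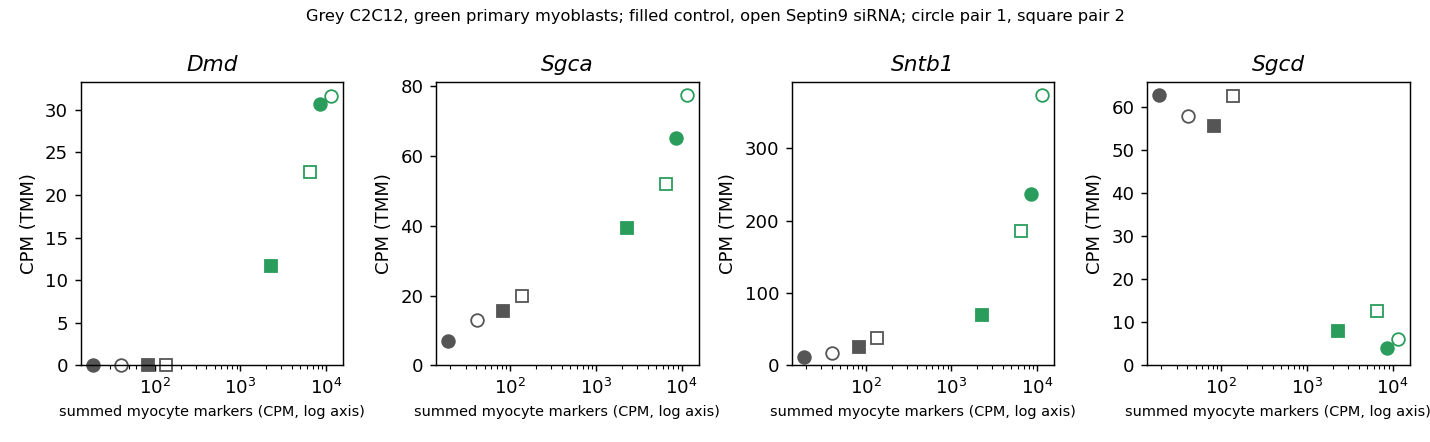
CPM of Dmd, Sgca, Sntb1 and Sgcd against the summed CPM of 8 myocyte markers on a log axis, 1 point per sample, with C2C12 cells in grey, primary myoblasts in green, controls filled and Septin9 siRNA open, pair 1 as circles and pair 2 as squares. Sgca and Sntb1 rise from left to right through both sets of samples, Dmd is at 0 for the 4 C2C12 samples, and Sgcd lies high on the left.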

How the data were processed

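Polyadenylated RNA of 8 samples was sequenced, and groups and replicate numbers came from the sample labels. The authors mapped read pairs with STAR 2.7.2 (GRCm38.p6), counted them per gene with featureCounts 2.0.1, and deposited raw counts. The authors also deposited, per cell type, a normalized signal, counts adjusted by ComBat-Seq and divided by DESeq2 size factors. It was a whole multiple of 1 read in 100% of values within a tolerance of 0.01, and served only for an alternative. In the raw counts 16 broken lines holding 5 genes were left out. All gene names were RefSeq symbols of GRCm38.p6, 70.9% of entries also had a length in GENCODE vM21, and Sspn and Sync have further copies and are uncertain.

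Counts were analysed in R 4.3.3 with edgeR 4.0.16 (filterByExpr, TMM, quasi-likelihood test, Benjamini-Hochberg adjustment over all genes tested). The siRNA comparisons were fitted per cell type and blocked on the replicate number, since the study ran independent experiments and removed their batch. Deviations of same-numbered samples from their group means correlated at 0.678 (C2C12) and 0.820 (primary myoblasts). The control comparison had no block. DESeq2 1.42.0 was an alternative, as were other scalings, filters and sample sets. In the blocked fits, p-values rest on how far the siRNA change varied between the 2 replicate pairs, with the spread partly shared across genes. In the control comparison they rest on the spread between the 2 replicates of each cell type. CPM shown were scaled over all 8 samples, log2 pair ratios within a cell type with a prior count of 2, and FPKM were CPM per kilobase of the union of exons. SEs were computed as the log2 fold change over the root of F. The main edgeR fits were tested on simulated data, and the alternative fits were not. The simulated siRNA change was the same in both pairs, and the simulated control comparison had no difference between experiments. The simulation therefore does not show how the fits behave where the replicates differ in these respects.

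The text names the 8 members, partners that passed in an siRNA comparison or make up a count of 5 or fewer, and the 5 genes most correlated with Dmd and with Utrn. Some partner genes within these counts are not reported here. Members and lists were chosen with earlier results of these data known. Promoter windows came from RefSeq (GRCm38.p6), which had entries for 6 of the 8 members, not for Dtna or Sntb1. Motif counts and scripts used Python 3.11.15.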

Additional observations from a re-analysis of the deposited data

How the results depend on the processing

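The precision rests on 2 replicates per group, and 3 counts in a C2C12 sample are 0.110 to 0.140 CPM. The fold change kept its direction in every called result of the members. DEGs numbered 248 in C2C12 cells and 543 in primary myoblasts, of which 1 and 2 were members. In C2C12 cells there were 0 DEGs without the replicate block, 99 with DESeq2, 154 with DESeq2 on the authors' batch-corrected counts and 83 in the fit of all 8 samples, and 98 to 181 with a replicate pair left out. Members among them were 2 with library size alone (Sgca besides Sntb1), 0 without the block and in the fit of all 8 samples, and 0 to 1 with a pair left out. In primary myoblasts there were 260 DEGs with RLE size factors, 206 with library size alone, 0 without the block and 230 with DESeq2, and 358 to 926 with a pair left out. Members among them were 1 with RLE size factors, library size alone, DESeq2 and the batch-corrected counts, 0 without the block, and 2 to 3 with a pair left out. For the difference of the effect between cell types, 21 genes passed with DESeq2, 255 without the filter (1 member, Sgcd, edgeR adjusted p = 0.0425), and 51 to 844 with a pair left out, with 0 to 5 members. Between the controls 5901 genes passed, and 512 to 4760 with a sample left out, with 0 to 5 members. With the replicate block 3 members passed. With a pair or a control left out, the lone sample was assumed to vary like the other groups. The calls lost without a sample came with fewer samples in the fit, and the cause of the other changes was not tested. Per kilobase of the longest transcript the control levels of Utrn, Sgcd and Dtna were higher, at 12.1, 13.3 and 4.54 FPKM in C2C12 cells.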
